A study of Mus musculus with 18 samples.

Results

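The genes described here encode proteins of the splicing machinery: the Sm and other small nuclear ribonucleoprotein (snRNP) proteins, the SF3 proteins of the U2 snRNP, the serine/arginine-rich (SR) proteins, the Tra2 proteins, and the heterogeneous nuclear ribonucleoproteins (hnRNPs). They are the genes with Srsf, Hnrnp, Snrp, Sf3a, Sf3b or Tra2 symbols on probe sets that carry 1 gene symbol. Such probe sets name 17097 genes, and these families make up 49 of them. Of the 49, 12 encode Sm and snRNP proteins, 9 SF3 proteins, 9 SR proteins, 2 Tra2 proteins and 17 hnRNPs. A filter on low levels kept 47 of the 49, and 12822 genes in all. Srsf12 (mean log2 level 5.22) and Tra2b (5.17) lay below it, at 5.52, and were not tested. Another 8 probe sets carry several symbols, 1 of them from these families, and were not used. A gene read only there is not among the 49.

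The tissue was cortex plus striatum of mice at 6 weeks: 2 CPEB4 KO animals, 2 heterozygous CPEB4 GT/+ animals and 2 WT animals. CPEB4 binds cytoplasmic polyadenylation elements in mRNAs. Each animal gave 3 of the 18 arrays: a long-tail fraction that left poly(U) agarose at 90% formamide (ELUTED), a short-tail fraction that left at 25% formamide (WASH), and total RNA (INPUT). The labels name no driver of the alleles and no strain, and they do not say that a replicate number marks a shared litter or day.

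The spliceosome removes introns from nuclear transcripts. Sm proteins form the ring around most spliceosomal small nuclear RNAs, SF3a and SF3b hold the U2 snRNP on the branch site, SR proteins mostly favour the use of an exon by binding within it, and many hnRNPs act against them or package nascent RNA. Several SR and hnRNP genes make alternative transcripts that carry a premature stop or are kept in the nucleus, through which the proteins limit their own amount.

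Values are log2 levels as deposited, and a ratio is log2 ELUTED minus log2 WASH within an animal, so a negative ratio means less signal in the long-tail fraction than in the short-tail fraction. The arrays had been normalized to each other, so every ratio is relative to the other genes on the array, and fewer cells that express a gene cannot be told apart from less RNA per cell. Levels of different probe sets were not compared as amounts of RNA. A gene was called at an adjusted p under 0.05 (limma, Benjamini-Hochberg over 12822 genes).

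Arrays of the same group correlated across genes at 0.966 to 0.994, and the ELUTED and WASH arrays of an animal at 0.884 to 0.969. ELUTED arrays were narrower in spread (SD over probe sets 1.78 to 1.91) than WASH arrays (1.96 to 2.01), and the 3' minus 5' difference of the Actb control was −0.47 to −0.31 in ELUTED and −0.21 to −0.059 in WASH. In INPUT the Actb difference was −0.48 to −0.41. That of the Gapdh control overlapped between the fractions, at −0.053 to 0.062 in ELUTED and −0.13 to 0.020 in WASH. The part of the spread or of these controls in the ratios was not tested. Cpeb4, the targeted gene, averaged 6.77 ± 0.21 in CPEB4 KO, 7.16 ± 0.22 in CPEB4 GT/+ and 7.89 ± 0.37 in WT INPUT (SD, n = 2 each). It was not called in INPUT in any genotype comparison (adjusted p = 0.253 by limma in CPEB4 KO over WT). Markers of cortical excitatory, striatal projection and GABA interneuron cells, 7, 6 and 6 genes, were all above the level filter.

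The INPUT array of CPEB4 KO 1 stood apart. It held liver transcripts: Alb was 12.1 there and 6.14 to 6.35 on the other 5 INPUT arrays, Apoa1 10.998 against 6.65 to 6.96, Cyp2e1 10.9 against 4.59 to 4.94, and Fgb 9.81 against 5.35 to 5.65. The fifth marker, Ttr, also a choroid plexus gene, was 11.4 there, inside the 7.84 to 11.8 of the others. On this array 67 named genes lay over 3 log2 units above every other INPUT array, and no other INPUT array had such a gene. The WASH and ELUTED arrays of the same animal held Alb at 6.16 and 6.53. The main results that use CPEB4 KO INPUT are therefore also given without CPEB4 KO 1.

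Promoters of 5 genes are shown because these genes span the range of ratios described below: Sf3b6 is the lowest member, Snrpg and Srsf6 are low members of their groups, and Tra2a and Hnrnpab are the only 2 called higher. Each run is the 150 bases before the RefSeq start (GRCm38.p6), 5′ to 3′ on the gene's strand, with capitals on matches to 3 motifs on either strand: CCGGAAG (ETS), GGGCGG (SP1) and CCAAT.
Snrpg, chr6:86371390-86371539, plus strand: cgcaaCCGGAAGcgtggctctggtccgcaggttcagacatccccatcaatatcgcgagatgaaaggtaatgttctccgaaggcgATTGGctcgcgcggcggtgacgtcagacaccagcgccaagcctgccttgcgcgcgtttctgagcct
Sf3b6, chr12:4817458-4817607, plus strand: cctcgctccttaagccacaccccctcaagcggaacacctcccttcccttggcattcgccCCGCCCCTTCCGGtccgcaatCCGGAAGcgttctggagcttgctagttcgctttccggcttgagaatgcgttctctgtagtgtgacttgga
Srsf6, chr2:162931358-162931507, plus strand: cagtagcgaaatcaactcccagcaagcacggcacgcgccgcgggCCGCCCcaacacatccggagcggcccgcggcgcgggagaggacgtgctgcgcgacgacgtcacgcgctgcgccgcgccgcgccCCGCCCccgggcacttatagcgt
Tra2a, chr6:49264053-49264202, minus strand: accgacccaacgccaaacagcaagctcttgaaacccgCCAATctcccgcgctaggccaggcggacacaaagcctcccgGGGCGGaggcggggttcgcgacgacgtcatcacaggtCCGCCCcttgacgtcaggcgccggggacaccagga
Hnrnpab, chr11:51606882-51607031, minus strand: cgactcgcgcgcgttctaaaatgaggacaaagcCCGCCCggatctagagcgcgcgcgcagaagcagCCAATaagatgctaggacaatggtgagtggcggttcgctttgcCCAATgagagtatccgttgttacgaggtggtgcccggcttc

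The promoter table held 43 of the 49 members, 8 of them with several starts, of which the first was used. Over the 300 bases from 250 before to 50 after the start, CCGGAAG was found in 30.23% of the members' promoters and in 9.121% of all 27025. GGGCGG was in 69.77% and 35.91%, CCAAT in 53.49% and 37.92%, TATAAA in 13.95% and 14.16%, the YY1 motif in 2.326% and 0.8992%, and the NRF1 motif in 0% and 0.9769%, for the members and all genes. Among the 27 members with a promoter that were called lower in ELUTED than in WASH, 33.33% held CCGGAAG and 62.96% GGGCGG, against 25% and 81.25% of the other 16. The other 16 include Srsf12 and Tra2b, which were not tested. All of these shares count letters, and neighbouring motifs may share bases.

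Most of the splicing genes had less signal in the long-tail than in the short-tail fraction. Over the 3 genotypes, 32 of the 47 members were called lower in ELUTED than in WASH and 2 higher, where 48.5% of all genes were lower and 24.9% higher, 73.4% in all. The other 13 were not called. All 6 animals were below 0 for 31 members (47.8% of all genes) and above 0 for 4 (23.7%). The median ratio of the members was −0.65 and that of all genes −0.18. In single animals the members' median was −0.59 and −0.70 in CPEB4 KO, −0.36 and −1.002 in CPEB4 GT/+, and −0.58 and −0.52 in WT. It was below the median of all genes in every animal, which was −0.14 and −0.23 in CPEB4 KO, −0.11 and −0.26 in CPEB4 GT/+, and −0.17 and −0.14 in WT. CPEB4 GT/+ 2 had the lowest members' median and CPEB4 GT/+ 1 the highest, so the 2 animals of this genotype bracketed the other 4.

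**Figure D1:**
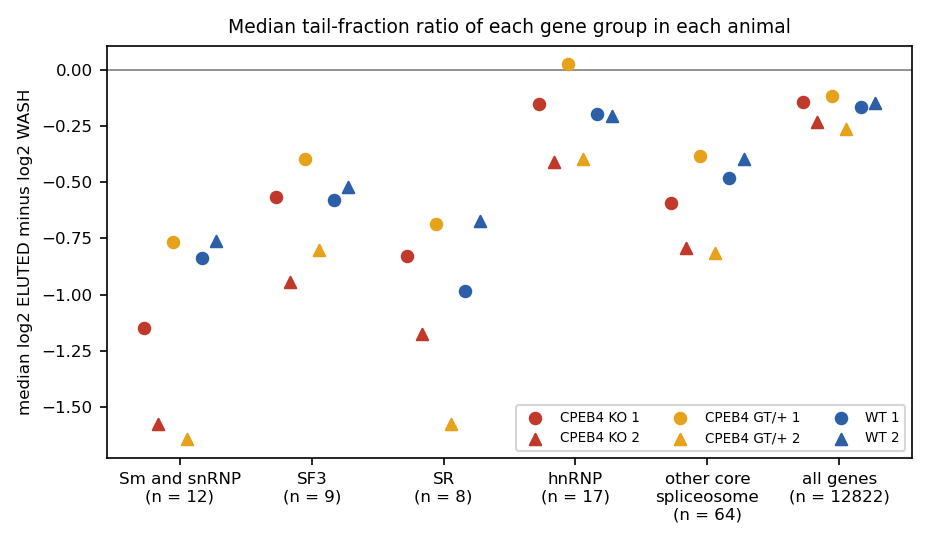
Median log2 ELUTED minus log2 WASH (vertical axis) of each gene group in each of the 6 animals, coloured by genotype, with circles for animal 1 and triangles for animal 2. In all 6 animals the Sm and snRNP, SF3 and SR medians lie below that of all genes, with Sm and snRNP medians from −1.64 to −0.76.

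How the arrays were scaled moved the level against which all genes are read. With each array centred on its median the median of all genes was −0.07, with quantile normalization −0.06, and with alignment on the hybridisation controls −0.67, and the members' medians were −0.54, −0.42 and −1.14. Of the members called, 7 were higher and 30 lower after centring, 10 and 29 after quantile normalization, and 1 and 41 after alignment. For all genes the split was 3196 higher and 6217 lower as deposited, 4204 and 5251 after centring, 3542 and 5077 after quantile normalization, and 202 and 9230 after alignment. Probe-set level also went with the ratio: the 6411 genes of higher level had a median ratio of −0.35, and the 6411 of lower level 0.04. Of the members, 40 were among the higher, with a median of −0.68, and 7 among the lower, with −0.47. The part of level in the members' ratios was not tested.

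Among the Sm and snRNP proteins, 9 of 12 genes were lower in ELUTED, against 48.5% of all genes, with a group median of −1.21. These included the ring proteins Snrpg (−1.41), Snrpe (−1.28), Snrpf (−1.26), Snrpd2 (−1.21), Snrpd1 (−1.20) and Snrpb (−0.96). They also included the U2 proteins Snrpb2 (−1.59) and Snrpa1 (−1.23), and the U1 protein Snrpa (−0.33). Snrpa lost its call after quantile normalization, without WT 1 and over INPUT (−0.14). Snrpg, a ring protein, had log2 levels of 8.57 and 8.36 in CPEB4 KO, 9.53 and 8.39 in CPEB4 GT/+, and 9.38 and 9.51 in WT ELUTED RNA. In WASH it had 10.22 and 10.39 in CPEB4 KO, 10.39 and 10.52 in CPEB4 GT/+, and 10.41 and 10.30 in WT. No ELUTED value reached a WASH value, and the WASH values varied less between animals than the ELUTED values. The ratio of Snrpg averaged −1.41 ± 0.60 (SD, n = 6), a 2.66-fold lower signal in ELUTED (SE 0.15, adjusted p = 0.000124).

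Snrpb2, which binds U2 snRNA, had a ratio of −1.54 and −2.18 in CPEB4 KO, −1.12 and −2.05 in CPEB4 GT/+, and −1.51 and −1.11 in WT. All 6 animals were below 0, with a mean of −1.59 ± 0.45 (SD, n = 6). The other 3 Sm and snRNP genes were not called: Snrpc of the U1 snRNP had 0.11, Snrpn, a brain-expressed relative of Snrpb that is read from the paternal allele, 0.13, and the ring protein gene Snrpd3 0.20. Snrpd3 was between 0.18 and 0.51 in 5 animals and −0.61 in CPEB4 GT/+ 2. After alignment on the hybridisation controls all 3 were below 0, at −0.38 for Snrpc, −0.36 for Snrpn and −0.29 for Snrpd3. Other settings gave calls above 0. Snrpc had 0.23 and Snrpn 0.24 after centring, and Snrpc had 0.41 and Snrpd3 0.41 after quantile normalization. Snrpd3 had 0.39 without CPEB4 GT/+ 2. With the mean of probe sets Snrpc had 0.31 and Snrpn 0.17, both called, and Snrpd3 −0.13, not called. Over INPUT Snrpc had −0.01 and Snrpn −0.08, neither called.

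**Figure D2:**
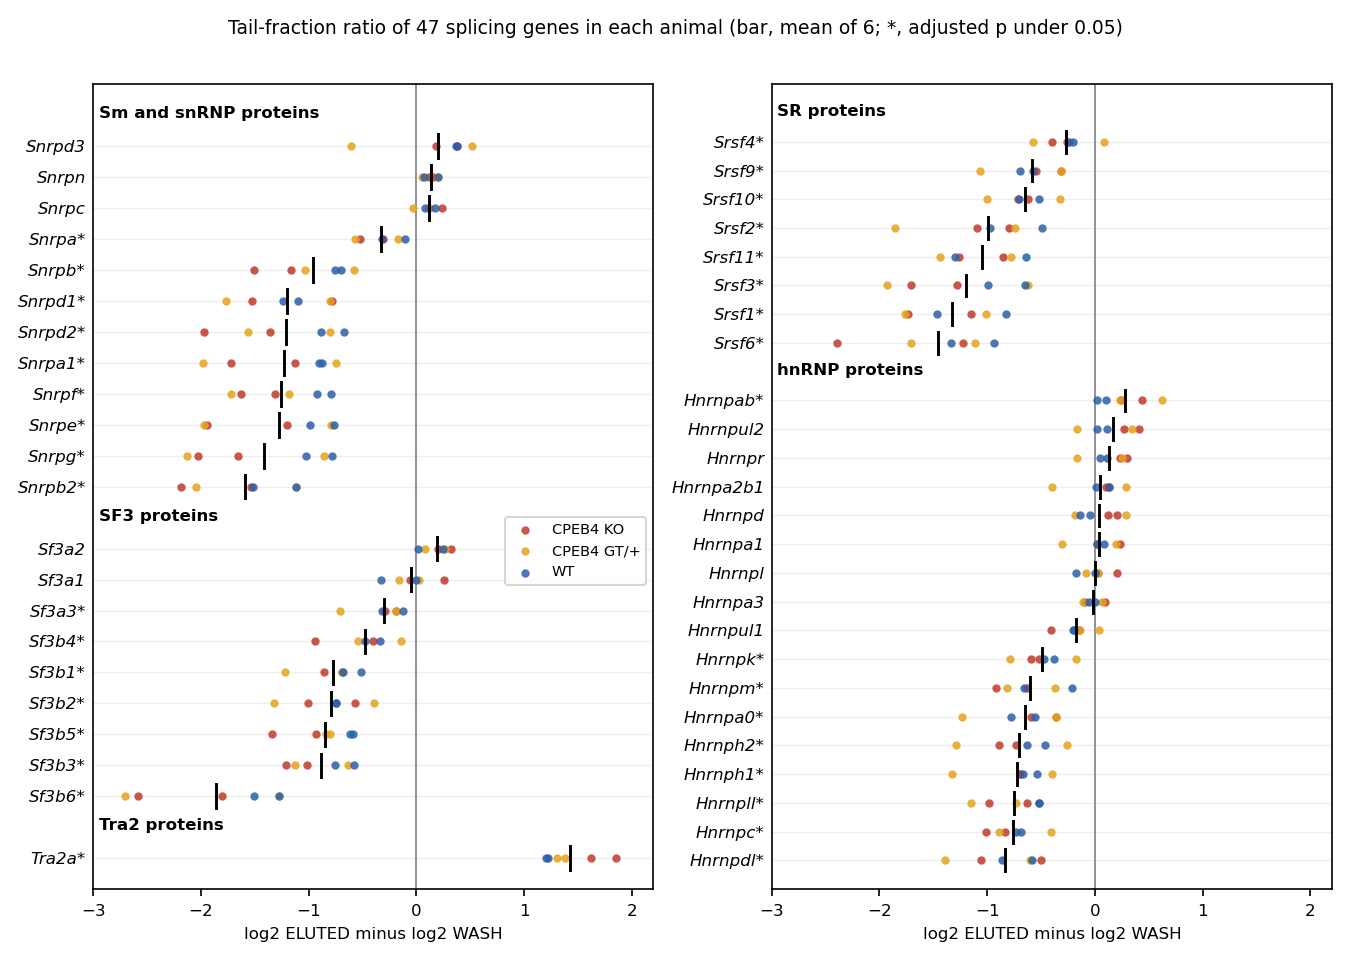
Log2 ELUTED minus log2 WASH (horizontal axis) of 47 splicing genes in each animal, as points coloured by genotype, with the mean of 6 animals as a bar and genes past the test starred. Sf3b6 is lowest at −1.86 and Tra2a highest at 1.43, and the hnRNP genes fall into some near 0 and some from −0.83 to −0.49.

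Of the 9 SF3 genes, 7 were lower in ELUTED, against 48.5% of all genes, and 2 were not called, with a group median of −0.78. The lower ones were Sf3b6 (−1.86), Sf3b3 (−0.89), Sf3b5 (−0.85), Sf3b2 (−0.80), Sf3b1 (−0.78), Sf3b4 (−0.47) and Sf3a3 (−0.31). Over INPUT, Sf3b4 (0.082) and Sf3a3 (0.055) were not called. Sf3a3 also lost its call after centring (adjusted p = 0.0691 by limma) or quantile normalization and without CPEB4 KO 1 or WT 1. In ELUTED over WASH all 6 Sf3b genes were lower, while of the Sf3a genes Sf3a1 had −0.05 and Sf3a2 0.19 and neither passed the test. Sf3a2 was called higher after centring (0.30), over INPUT (0.27), with no filter and with the mean of probe sets. It was also called higher with a trended robust variance, without CPEB4 GT/+ 1 and with the fractions as unpaired arrays. After alignment on the hybridisation controls it had −0.30, not called.

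Sf3b6, whose protein contacts the branch-point adenosine, had the lowest ratio of all members. Its log2 level was 7.13 and 6.84 in CPEB4 KO, 8.01 and 6.71 in CPEB4 GT/+, and 7.64 and 7.84 in WT ELUTED RNA. In WASH it was 8.93 and 9.42 in CPEB4 KO, 9.28 and 9.42 in CPEB4 GT/+, and 9.14 and 9.11 in WT. Each ELUTED value lay below every WASH value. The mean ratio was −1.86 ± 0.64 (SD, n = 6), a 3.62-fold lower signal in ELUTED (SE 0.18).

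Where 48.5% of all genes were lower in ELUTED, all 8 SR protein genes tested were, with a group median of −1.02. They were Srsf6 (−1.45), Srsf1 (−1.32), Srsf3 (−1.20), Srsf11 (−1.05), Srsf2 (−0.99), Srsf10 (−0.65), Srsf9 (−0.59) and Srsf4 (−0.27). Srsf1 and Srsf2 encode the most studied SR proteins, Srsf3 the smallest, and Srsf10 one that can repress splicing. Srsf4 was above 0 in CPEB4 GT/+ 1 (0.08). It lost its call without any 1 of 5 animals, after centring or quantile normalization, and over INPUT (−0.05).

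Srsf6, an exon-binding SR protein gene, had log2 levels of 8.04 and 6.98 in CPEB4 KO, 8.11 and 7.91 in CPEB4 GT/+, and 8.18 and 8.28 in WT ELUTED RNA. Its WASH levels were 9.26 and 9.37 in CPEB4 KO, 9.22 and 9.62 in CPEB4 GT/+, and 9.52 and 9.22 in WT. The CPEB4 KO 2 ELUTED array was the lowest of all, and the fractions did not overlap. The mean ratio was −1.45 ± 0.53 (SD, n = 6), a 2.74-fold lower signal in ELUTED (SE 0.15).

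Tra2a went the other way. It encodes an SR-like protein that binds purine-rich exon sequences. Its ratio was 1.62 and 1.85 in CPEB4 KO, 1.30 and 1.38 in CPEB4 GT/+, and 1.20 and 1.22 in WT. All 6 animals were above 0, and both CPEB4 KO animals were above the other 4. Its log2 level was 9.75 and 9.57 in CPEB4 KO, 9.55 and 10.11 in CPEB4 GT/+, and 9.50 and 9.47 in WT ELUTED RNA, and 8.13 and 7.72, 8.24 and 8.73, and 8.30 and 8.25 in WASH of the same animals. The mean ratio was 1.43 ± 0.26 (SD, n = 6), a 2.69-fold higher signal in ELUTED (SE 0.072), on the only Tra2a probe set used.

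Of the 17 hnRNP genes, 8 were lower, 1 was higher and 8 were not called. The share of lower genes was near that of all genes, 48.5%, while 24.9% of all genes were higher. The hnRNP median was −0.18, which is also the median of all genes. The lower ones were Hnrnpdl (−0.83), Hnrnpc (−0.76), Hnrnpll (−0.76), Hnrnph1 (−0.72), Hnrnph2 (−0.71), Hnrnpa0 (−0.65), Hnrnpm (−0.60) and Hnrnpk (−0.49). Hnrnpc packages nascent RNA, Hnrnph1 and Hnrnph2 bind G-rich runs and Hnrnpk binds C-rich RNA. Those not called were Hnrnpul1 (−0.18), Hnrnpa3 (−0.02), Hnrnpl (0.00), Hnrnpa1 (0.04), Hnrnpd (0.04), Hnrnpa2b1 (0.04), Hnrnpr (0.13) and Hnrnpul2 (0.16).

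Hnrnpab was the 1 hnRNP gene called higher. Its ratio was 0.24 and 0.43 in CPEB4 KO, 0.23 and 0.62 in CPEB4 GT/+, and 0.02 and 0.11 in WT, so every animal was above 0 by a small amount. The mean was 0.28 ± 0.22 (SD, n = 6, SE 0.081, adjusted p = 0.0146). The call was lost without CPEB4 KO 2, WT 1 or WT 2. It rests on 1 probe set: the other 4 of the gene were below 0, and the mean of the gene's probe sets gave −0.38. The ratio was −0.21 after alignment on the hybridisation controls.

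Within a genotype, CPEB4 KO had 28 members lower (38.7% of all genes) and 1 higher (16.1%), with 54.8% of all genes called. CPEB4 GT/+ had 29 lower (36.2%) and 2 higher (13.7%), with 49.9% called, and WT 22 lower (22.2%) and 1 higher (4.73%), with 26.9% called. Without CPEB4 KO 2, 6 members were lower in CPEB4 KO, and without CPEB4 GT/+ 2, 14 were lower in CPEB4 GT/+. Without either WT animal no member was called in WT.

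Each fraction was also set against INPUT. In ELUTED over INPUT, 26 members were lower (29.5% of all genes) and 4 higher (14.6%), where 44.1% of all genes were called, with a median of −0.34 against −0.04 for all genes. In WASH over INPUT, 32 were higher (45.1%) and 4 lower (19.5%), where 64.6% were called, with a median of 0.25 against 0.11. Without CPEB4 KO 1, whose INPUT array held liver transcripts, 26 were lower and 2 higher in ELUTED over INPUT, and 30 higher and 5 lower in WASH over INPUT. Both comparisons share the INPUT arrays. Sf3b6 had −1.06 in ELUTED over INPUT and 0.79 in WASH over INPUT, and Snrpg −0.92 and 0.49. Tra2a had 0.90 and −0.53. Hnrnpab was below INPUT in both, at −0.29 and −0.57, and Snrpa1 had −0.28, not called, and 0.94. Without CPEB4 KO 1 these were −1.15 and 0.84 for Sf3b6, −0.96 and 0.52 for Snrpg, 0.87 and −0.60 for Tra2a, −0.33 and −0.63 for Hnrnpab, and −0.35 and 0.98 for Snrpa1.

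**Figure D3:**
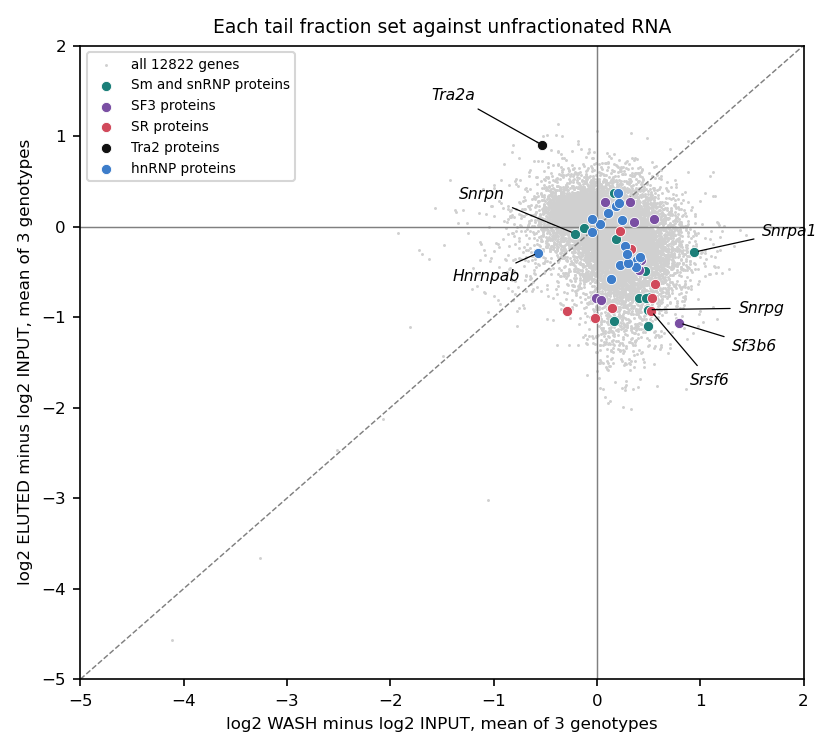
Mean log2 ELUTED minus log2 INPUT (vertical axis) against mean log2 WASH minus log2 INPUT (horizontal axis) over the 3 genotypes, for 12822 genes in grey and the 47 splicing genes in colour, with equality dashed. Most splicing genes lie below the dashed line, and Tra2a lies above it at 0.90 and −0.53.

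Other splicing genes, from lists chosen for their roles, were set beside the members. In the same comparison 48.5% of all genes were lower and 24.9% higher. Of 64 other core spliceosome genes tested (74 listed), 47 were lower and 4 higher in ELUTED over WASH, with a median of −0.58. The lowest were Bcas2 (−1.52), a subunit of the Prp19 complex, and Prpf4b (−1.50), a kinase of the tri-snRNP, and the highest were Wbp11 (0.27) and Snrnp70 (0.22), the U1 70K protein gene. Of 23 SR-related and SR kinase genes, 14 were lower and 5 higher (median −0.41), from Clk1 (−1.53), an SR protein kinase, and Rsrc1 (−1.36) to Srrm2 (0.85) and Luc7l2 (0.75). Of 19 hnRNP-like genes, 12 were lower and 4 higher (median −0.38), from Fubp3 (−1.25) and Ilf2 (−1.08) to Taf15 (1.09) and Fubp1 (0.80). All 3 exon junction complex genes tested were lower: Rbm8a (−1.22), Eif4a3 (−0.57) and Casc3 (−0.40). Of 12 snRNP assembly genes, 8 were lower and 1 higher (median −0.37), from Clns1a (−0.87) and Snupn (−0.63) to Gemin7 (0.36); Gemin8 (0.16) was not called.

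Probe sets of the same gene did not always give the same ratio. Of 66 pairs of another probe set with the main one, in 31 members, 45 differed past the test, where 63% of 7943 pairs of all genes did. In 18 of the 66 pairs (27.3%), of 10 members, they also lay on opposite sides of 0, where 28.6% of the pairs of all genes did, so the members' share was near that of all genes. The largest difference was in Snrpb2: its main probe set had −1.59 and another 0.07, a difference of 1.66 (SE 0.16). For Srsf11 the values were −1.05 and 0.47 (difference 1.51, SE 0.16), and for Hnrnpc −0.76 and 0.71 (1.47, SE 0.12). The probe sets of Srsf11 and Hnrnpc that were above 0 had mean levels of 5.61 and 5.62, and 5.41 and 5.25 in WASH, where the highest of 23 nonspecific controls averaged 5.61. They were thus not above that control, which itself lies above the level filter of 5.52, and the sizes of these 2 differences are not measured well.

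**Figure D4:**
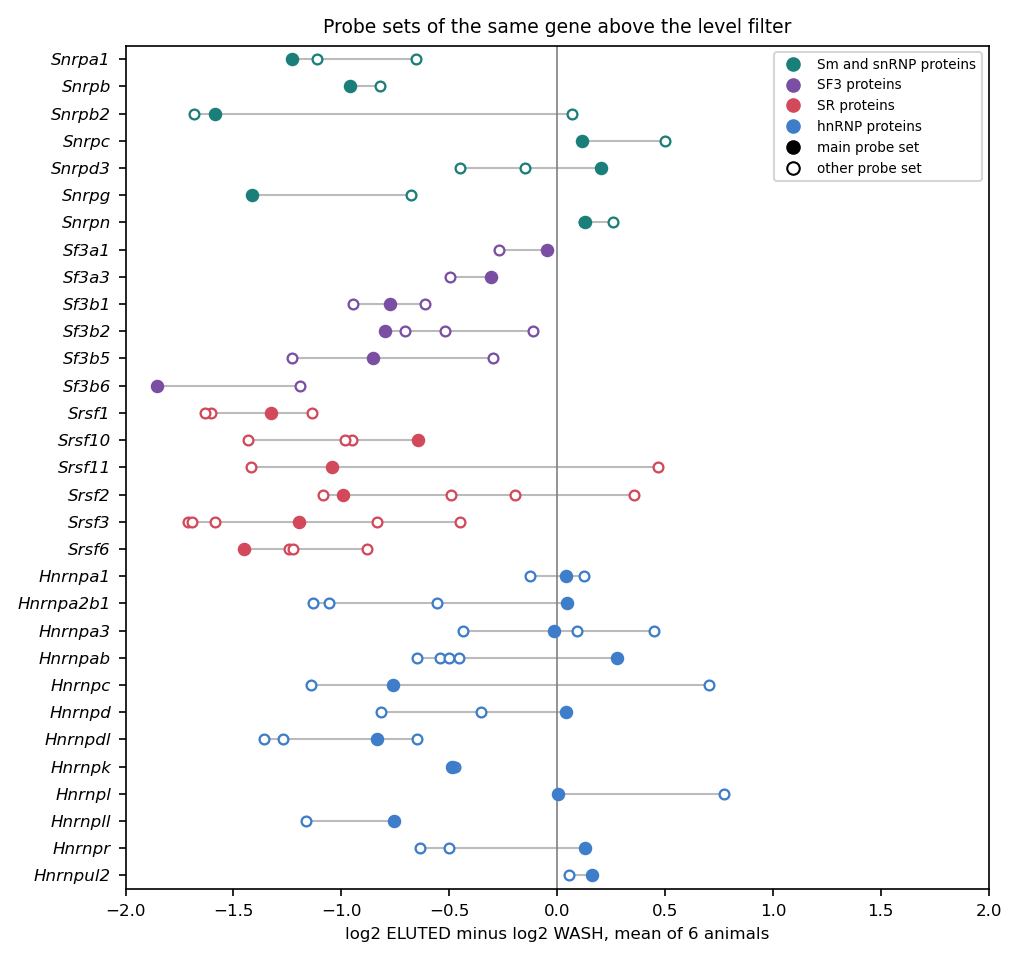
Mean log2 ELUTED minus log2 WASH over 6 animals (horizontal axis) of every probe set above the level filter, for members with more than 1, with the main probe set filled and the others open. In Snrpb2, Srsf11 and Hnrnpc the line joining a gene's probe sets crosses 0 and is over 1 log2 unit long.

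In Hnrnpa2b1 the main probe set had 0.04 and 3 others −1.06, −1.13 and −0.56, and all 6 animals were below 0 on each of those. In Hnrnpab the 4 others had −0.54, −0.65, −0.45 and −0.50, also below 0 in all 6 animals, while the main one was above. Hnrnpr had 0.13 and −0.50 and −0.64, Hnrnpd 0.04 and −0.35 and −0.82, and Snrpd3 0.20 and −0.15 and −0.45. Srsf2 had −0.99 on its main probe set, and −1.09, −0.19, −0.49 and 0.36 on the others. Hnrnpa3 had −0.02 on its main probe set, and 0.45, 0.09 and −0.44 on the others. Hnrnpl had 0.00 on its main probe set and 0.77 on the other, where all 6 animals were above 0. Snrpg, Sf3b6 and Srsf6 were below 0 on every probe set tested: Snrpg had −0.68 on its other probe set, Sf3b6 −1.19, and Srsf6 −1.22, −1.24 and −0.88. Where the probes lie in the transcripts was not used here, so which isoform or end each probe set reads is not given.

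In INPUT, no member differed between genotypes by limma (0% of all genes were called in each of the 3 comparisons). At an unadjusted p under 0.05 there were 4 members (1404 of all genes) in CPEB4 KO over WT, 4 (438) in CPEB4 GT/+ over WT and 1 (1043) in CPEB4 KO over CPEB4 GT/+. Without CPEB4 KO 1 there were 5 (1785) in CPEB4 KO over WT and 2 (1210) in CPEB4 KO over CPEB4 GT/+. With 2 animals a group, an exact test cannot go below p = 0.333. The animals of CPEB4 KO lay above both WT animals for 16 members (24.7% of all genes) and below for 5 (18.4%), and those of CPEB4 GT/+ lay above WT for 12 (16.9%) and below for 0 (15%). CPEB4 KO lay above CPEB4 GT/+ for 5 members (22.8%) and below for 6 (15.2%). With CPEB4 KO 2 alone, CPEB4 KO lay above WT for 31 (48.8%) and below for 6 (27.6%), and above CPEB4 GT/+ for 18 (47.7%) and below for 8 (24.6%). The mean INPUT level of 5 pituitary markers, 3 of them above the level filter, was 5.65 and 5.66 in CPEB4 KO, 5.61 and 5.74 in CPEB4 GT/+, and 6.24 and 6.01 in WT, and its part in the members' differences was not tested. The members' median difference was 0.08 in CPEB4 KO over WT and 0.07 in CPEB4 GT/+ over WT, against 0.03 and 0.00 for all genes. Without CPEB4 KO 1 it was 0.13 in CPEB4 KO over WT, against 0.06.

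Sf3b3, an SF3b subunit gene, had INPUT levels of 8.75 and 8.94 in CPEB4 KO, 8.67 and 8.61 in CPEB4 GT/+, and 8.41 and 8.52 in WT. Both CPEB4 KO animals were above the other 4, by 0.38 over WT (SE 0.10, adjusted p = 0.388), or 0.47 without CPEB4 KO 1 (adjusted p = 0.205). Snrpa1, of the U2 snRNP, had 8.82 and 8.76 in CPEB4 KO, 8.77 and 8.66 in CPEB4 GT/+, and 8.54 and 8.15 in WT. Its difference was 0.45 in CPEB4 KO over WT, or 0.42 without CPEB4 KO 1, and 0.37 in CPEB4 GT/+ over WT. Snrpg had 9.93 and 9.96 in CPEB4 KO, 10.04 and 9.94 in CPEB4 GT/+, and 9.71 and 9.68 in WT, a difference of 0.25 (0.26 without CPEB4 KO 1) and 0.29 over WT. These 3 genes were above WT in all 4 CPEB4 KO and CPEB4 GT/+ animals, and none passed the adjusted test.

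As an alternative chosen after the liver transcripts were seen, WASH and ELUTED were averaged in place of INPUT. Sf3b3, Snrpa1 and Snrpg then had CPEB4 KO over WT differences of −0.05, −0.11 and −0.51, so the INPUT direction was not kept. In CPEB4 GT/+ over WT the same average gave −0.11 for Snrpa1, −0.19 for Snrpg and −0.08 for Sf3b6, also below 0. In INPUT itself, Snrpc had −0.27 in CPEB4 KO over WT, or −0.13 without CPEB4 KO 1. Snrpd1 had −0.15 (−0.11) and Hnrnpdl −0.11 (−0.10). Snrpd1 differed most between CPEB4 KO and CPEB4 GT/+ (−0.41, or −0.37 without CPEB4 KO 1). Sf3b6 was 0.36 higher in CPEB4 GT/+ than in WT INPUT and not called. Without CPEB4 KO 1, 41 of the 47 members kept their INPUT sign in CPEB4 KO over WT, and no member's value moved by more than 0.22.

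**Figure D5:**
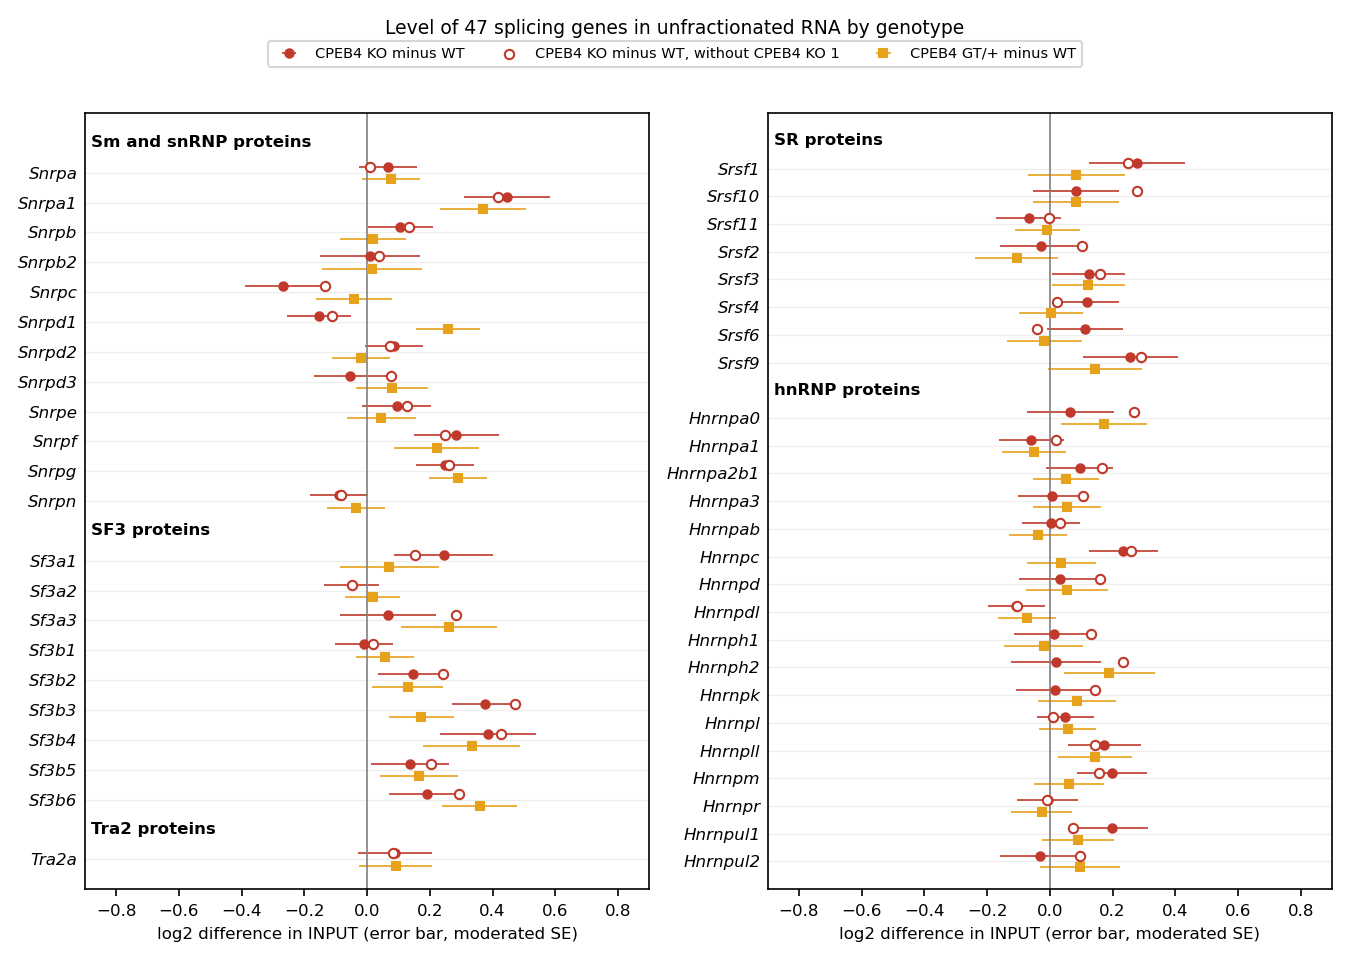
Log2 difference in INPUT (horizontal axis) of 47 splicing genes in CPEB4 KO minus WT, with and without the CPEB4 KO 1 array, and in CPEB4 GT/+ minus WT, with moderated standard errors as bars. No difference passed the adjusted test, and with all arrays Snrpa1 had the largest, 0.45 in CPEB4 KO and 0.37 in CPEB4 GT/+, while without CPEB4 KO 1 Sf3b3 had 0.47.

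The ELUTED over WASH ratio did not differ between genotypes past the test for any member or any gene (0% called by limma in each of 3 comparisons). At an unadjusted p under 0.05 there were 6 members (791 of all genes) in CPEB4 KO over WT, 1 (115) in CPEB4 GT/+ over WT and 1 (237) in CPEB4 KO over CPEB4 GT/+. The CPEB4 KO animals lay below both WT animals for 18 members (31.2% of all genes) and above for 7 (20.6%). CPEB4 GT/+ lay below WT for 4 (10.6%) and above for 3 (11.2%), and CPEB4 KO below CPEB4 GT/+ for 3 (11.8%) and above for 3 (9.74%).

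The Sm and snRNP genes had the most negative median difference of the groups with over 1 gene in CPEB4 KO over WT, −0.54, with 10 of 12 below 0, where all genes had −0.04. Without CPEB4 KO 2 it was −0.23, with 8 of 12 below 0. In CPEB4 GT/+ over WT the median was −0.34, with all 12 below 0, where all genes had −0.03 and 56.1% of them were below 0. This rests on CPEB4 GT/+ 2: without that animal the median was 0.076 and 3 of 12 were below 0. Snrpg differed most in CPEB4 KO over WT, by −0.94 (adjusted p = 0.756). Snrpd2, another ring protein gene, had ratios of −1.36 and −1.97 in CPEB4 KO, −0.80 and −1.57 in CPEB4 GT/+, and −0.88 and −0.68 in WT. Both CPEB4 KO animals lay below WT, by −0.88 (SE 0.30, 95% interval −1.57 to −0.20, adjusted p = 0.756), while the CPEB4 GT/+ animals overlapped WT. Snrpb had −1.17 and −1.51 in CPEB4 KO, −0.58 and −1.04 in CPEB4 GT/+, and −0.70 and −0.75 in WT, a CPEB4 KO over WT difference of −0.61, and Sf3b5 had a difference of −0.54.

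Tra2a had the highest CPEB4 KO over WT difference among members, 0.53 (SE 0.18, adjusted p = 0.756), and 0.14 in CPEB4 GT/+ over WT. Snrpf had −0.59 in CPEB4 GT/+ over WT, with both CPEB4 GT/+ animals below WT, and Hnrnpll −0.42. All of these missed the adjusted threshold, and a miss does not show that the genotypes act alike. On simulated data with 200 of 12822 genes changed, a CPEB4 KO over WT difference of 1 log2 unit was recovered for 28.6% of changed genes. A difference of 2 was recovered for 70.8%.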

How the data were processed

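The deposited table holds log2 values that the authors made with RMA, per the submitters' processing notes; its version is not given in the sources used here. Amplification took 5 ng of RNA through 21 cycles, per the labels' protocols. The labels' text and the probe set names differ on the array design, and the names were used. A gene is read from 1 probe set, that of highest mean level on the 18 arrays (28898 of 45141 probe sets carry 1 symbol, 28689 of them matched RefSeq by Entrez identifier), and the lowest 25% of genes were left out. The unit was the animal: the log2 differences between fractions within it, or its INPUT value, were fitted with genotype means in limma 3.58.1 (lmFit, contrasts.fit, eBayes) in R 4.3.3, all 6 animals sharing 1 spread with 3 residual degrees of freedom. There were 13 comparisons, two-sided, called at a Benjamini-Hochberg adjusted p under 0.05. Precision is limited by having 2 animals per genotype.

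The rule for named genes takes, per group, up to 4 members with the highest and 4 with the lowest ELUTED over WASH and 2 with the highest INPUT level; per genotype comparison, up to 3 higher and 3 lower members with the smallest unadjusted p; members with a probe set pair past the test on opposite sides of 0 and the 3 largest differences; Cpeb4; and the 2 highest and 2 lowest of each of 5 other splicing lists. Other members are named to account for all of them. Members and lists were chosen with earlier results of these data known. No 2 arrays were duplicates (mean absolute difference 0.118 to 0.602). The replicate numbers were not taken to pair the animals. On simulated data of 12822 genes, 200 of them changed, the 3-genotype fit recovered 65.7% of changes of 0.5, 88.7% of 1 and 100% of 2 log2 units. The simulated noise was drawn separately for each gene. In the data 73.4% of genes were called in this fit, so these rates need not hold there. Alternatives were other scaling, filters, probe set rules, variance models, a replicate block and leaving out each animal; group medians without each animal and single members over INPUT without CPEB4 KO 1 were added after seeing the data.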

Additional observations from a re-analysis of the deposited data

Results flagged for a closer look

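Among 46 values tested for 1 animal far from the other 5, 4 stood out, where chance gives about 1 in 20. In 3 of them the animal was CPEB4 GT/+ 2. Its ELUTED over WASH ratio was −0.61 for Snrpd3, where the others had 0.18 to 0.51, −0.71 for Sf3a3, where the others had −0.32 to −0.13, and −1.32 for Hnrnph1, where the others had −0.70 to −0.40. The correlation of its ELUTED with its WASH array, 0.884, was the lowest of the 6 animals, and its ELUTED spread, 1.78, the narrowest. CPEB4 KO 2 was next in both, at 0.892 and 1.80. The part of these array traits in the 3 values was not tested. The mean of the liver markers in INPUT was 11.03 in CPEB4 KO 1 and 6.24 to 6.97 in the others.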

How the results depend on the processing

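Across the 3 genotypes, 2 members were higher and 32 lower in ELUTED than in WASH. The higher count was 7 with centred arrays, 1 with arrays aligned on the hybridisation controls, 10 with quantile normalization, 5 with the mean of probe sets, 4 with a trended robust variance and 4 with ELUTED over INPUT as the ratio. The members' median minus that of all genes, −0.47, was −0.29 over INPUT. In CPEB4 KO the higher count was 5 centred, 8 with quantile normalization, and 3 with the mean of probe sets, the trended variance or INPUT, and the median −0.32 over INPUT. In CPEB4 GT/+ the higher count was 4 with quantile normalization and 1 when aligned, with the mean of probe sets or over INPUT, and the lower count 13 over INPUT. In WT the lower count was 13 centred, 11 with quantile normalization and 0 over INPUT, where the higher count was 0 and the median −0.15. In ELUTED over INPUT the higher count was 1 aligned and 11 with quantile normalization. In WASH over INPUT the lower count was 2 aligned, and the median 0.088 with quantile normalization, 0.21 with no filter and 0.065 without the lowest 50% of genes. The cause of these shifts was not tested.

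Of 1289 recomputed values of single members and probe set pairs, 45 changed sign, 11 of them where the value was called before or after the change and 34 where it was called in neither. Of the 11, aligned on the hybridisation controls, Snrpc had −0.38, Snrpn −0.36, Hnrnpa2b1 −0.45 and Hnrnpab −0.21. With the mean of probe sets, Hnrnpa2b1 had −0.68, Hnrnpr −0.17 and Hnrnpab −0.38. Over INPUT, Sf3b4 had 0.082, Sf3a3 0.055, Sf3a1 0.27 and Hnrnpab −0.29. Of all values, 1197 kept their sign and side of the threshold, 22 lost their call and 25 gained one. After alignment 1 of the 47 members had a ratio above 0, against 12 as deposited.

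Leaving out each animal in turn gave 1 to 5 members higher and 29 to 33 lower over the 3 genotypes, with a median difference of −0.59 to −0.38. CPEB4 KO had 1 to 5 higher and 6 to 32 lower (−0.51 to −0.45), CPEB4 GT/+ 1 to 2 and 14 to 34 (−0.74 to −0.25), and WT 0 to 2 and 0 to 29 (−0.45 to −0.37). ELUTED over INPUT had 1 to 7 higher and 18 to 29 lower (−0.39 to −0.20), with 1 and 18 without WT 1, and WASH over INPUT 30 to 31 and 4 to 5 (0.12 to 0.14). Pairs past the test numbered 36 to 52, with 14 to 18 on opposite sides of 0. No member was called between genotypes in any of these, the count being 0 each time.

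Animals with the same replicate number did not deviate together in INPUT, where the correlations were −0.04, −0.08 and −0.01. In the ratio CPEB4 KO and CPEB4 GT/+ animals of the same number did, at 0.51, while pairs with WT had −0.28 and −0.33, so the numbers were not taken to pair the animals. With the replicate block, 2 members were higher and 32 lower over the 3 genotypes, and 9278 genes were called, against 9413 without it.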
